A study of Sus scrofa with 21 samples.

Results

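CD14, CD163, CSF1R, CD68, SIRPA, LYZ and CD86 are genes that mark monocytes among the cells of the blood. The members were chosen by name, with earlier results of these data known. Every array probe whose gene entry in the scanner files was one of these 7 symbols was taken, with no use of the probe's own value. The rule found 24 probes of the 60305 on the array besides its controls, and 7 of the 47053 gene entries. All 24 probes passed the filter on dim probes, which removed the 25% of probes with the lowest mean over all arrays. CD163 had 6 probes, CD86 had 5, SIRPA and LYZ had 4 each, CD14 had 3, and CSF1R and CD68 had 1 each.

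Whole blood RNA was measured in 10 SLAdd (DD) pigs of 5 litters and 11 Large White (LW) pigs of 6 litters, all 60 days old and all fed a standard diet without restriction. DD is an inbred minipig line kept homozygous at the SLA locus, the major histocompatibility complex of the pig, and LW pigs served as controls. The labels give no treatment, so breed is the only difference that the design sets, and it takes in every difference in genome, size and growth between an inbred minipig herd and a conventional breed. Each pig gave 1 array, and the 3 chips held 3 DD and 4 LW arrays, 4 and 4, and 3 and 3. The study asked how the blood of DD pigs differs from that of LW pigs, and the marker genes put that question to 1 class of white blood cell.

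Monocytes are phagocytes that circulate in blood and give rise to macrophages and to some dendritic cells. CD14 binds bacterial lipopolysaccharide at the cell surface, CD163 takes up complexes of haemoglobin and haptoglobin, and CSF1R is the receptor of the cytokines that keep the lineage alive. SIRPA is an inhibitory receptor for CD47, CD68 and lysozyme (LYZ) belong to the lysosome and to secreted antibacterial defence, and CD86 is a costimulatory ligand for T cells. None of these genes is strictly confined to monocytes: neutrophils also express CD14 and LYZ, dendritic cells express SIRPA, and activated B cells express CD86. In RNA of whole blood, fewer monocytes and less RNA per monocyte cannot be told apart.

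The RefSeq annotation of the pig assembly Sscrofa11.1 places CD163 at chr5:63300200-63334497 and LYZ at chr5:33612593-33618953. It places CD14 at chr2:142348036-142349686 and CSF1R at chr2:151102138-151130311. SIRPA lies at chr17:33566270-33611375, CD68 at chr12:52874754-52877256 and CD86 at chr13:138427573-138504307.

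The sequences of 5 probes follow, because results below turn on what each probe reads. They are given 5′ to 3′ as in the scanner files, in lower case, and no base is set apart in capitals. The first 3 belong to CD163, and the second of them is on the array under a pair of probe names with the same 60 bases. The others are the only probe of CSF1R and the SIRPA probe with the largest breed difference among the 4 of that gene.
A_72_P656100: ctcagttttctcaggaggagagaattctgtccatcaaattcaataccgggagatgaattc
A_72_P018171 and A_72_P624895: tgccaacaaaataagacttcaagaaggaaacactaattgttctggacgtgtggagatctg
A_72_P170001: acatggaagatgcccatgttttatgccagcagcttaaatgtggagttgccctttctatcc
O6058: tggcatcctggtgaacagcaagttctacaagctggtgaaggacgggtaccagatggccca
A_72_P440496: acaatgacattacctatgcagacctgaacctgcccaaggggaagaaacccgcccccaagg

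The share of probes with a signal well above background lay between 44.7% and 63.8% over the arrays, and no probe was saturated. The DD arrays were dimmer, with a log2 75th percentile of the processed signal of 7.53 ± 0.54 (SD, n = 10) against 8.22 ± 0.38 (SD, n = 11) on the LW arrays. The gap in brightness was small on chip 1 (7.95 in DD against 8.02 in LW) and wider on chip 2 (7.55 against 8.31) and chip 3 (7.09 against 8.36). The study's quality assessment named chip 3 as technically biased, and several results below change without it. The values given below are log2 values after quantile normalization by the authors, and a gene's value is the mean of its kept probes. Probes differ in brightness, so a level was compared only with the level of the same gene or probe in other pigs. The number of arrays limits the precision.

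CD163, the haemoglobin scavenger receptor, was the only marker that passed the test, and it was lower in DD pigs. In DD pigs its log2 value ran from 5.33 (DD_16) through a median of 6.25 to 6.78 (DD_11). In LW pigs it ran from 6.08 (LW_15) through a median of 6.76 to 7.97 (LW_12). The breeds overlapped, but 5 LW pigs lay above every DD pig and 3 DD pigs lay below every LW pig. The fitted log2 fold change (FC), DD minus LW, was -0.72 (SE 0.21, 95% interval -1.15 to -0.29, limma adjusted p = 0.0233), which is 1.65-fold higher in LW pigs. Over all 34393 gene entries tested, 20.9% passed the same threshold, an adjusted p of 0.05, and 9.41% were lower in DD pigs. Higher values in DD pigs made up 54.9% of the calls here and from 30.9% (litter means) to 69.7% (processed signal scaled to its 75th percentile) under the alternatives. With that scaling CD163 had a log2 FC of -0.79 (limma adjusted p = 0.0440). The 1 gene called of 7 is 14.3% of the markers, below the share of all genes.

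**Figure D1:**
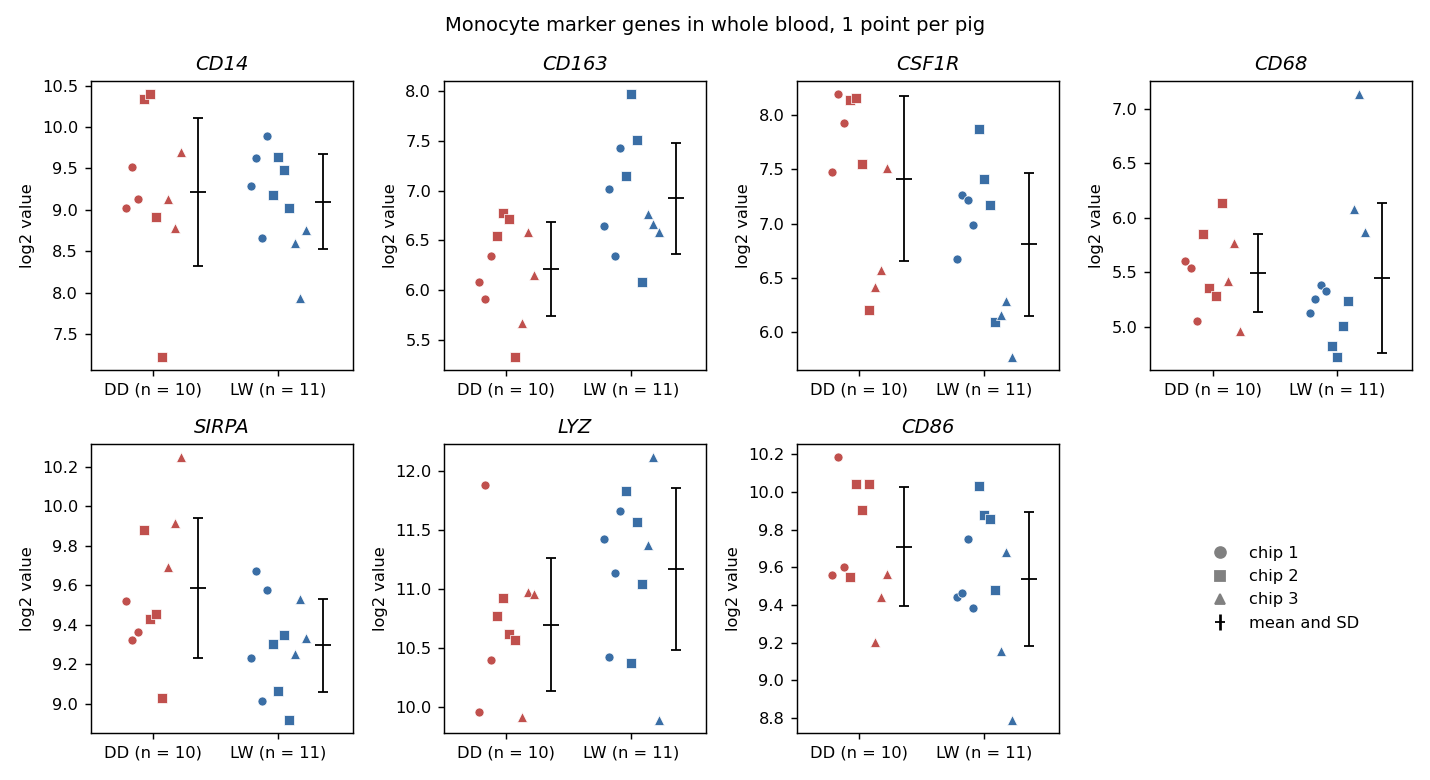
Log2 value of each monocyte marker gene (y axis) in DD and LW pigs (x axis), 1 point per pig, with the marker shape giving the chip and the black bar the mean ± SD of the breed. For CD163, 9 of the 10 DD pigs lie below the LW median of 6.76. For the other genes the breeds overlap more, and DD_16 lies apart at the foot of the CD14 panel with 7.22.

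Of the 6 CD163 probes, 4 were called, each lower in DD pigs, where 21.7% of the 45228 probes tested were called and 10.7% were lower in DD pigs. The largest difference was that of O14513, with 7.59 ± 0.55 (SD, n = 10 DD pigs) against 8.73 ± 0.65 (SD, n = 11 LW pigs). Its log2 FC was -1.18 (SE 0.21, limma adjusted p = 0.0011), 7 LW pigs lay above every DD pig, and 5 DD pigs lay below every LW pig. A_72_P177981 followed at -1.09 (SE 0.24, limma adjusted p = 0.00526) and A_72_P656100 at -0.87 (SE 0.23, limma adjusted p = 0.0150). These 3 probes were well above background on all arrays. O14513 is listed under another transcript entry than the other 5 CD163 probes, and its match to the pig transcript was not checked. Without chip 3 all 4 called CD163 probes lost the call, with limma adjusted p from 0.0522 (O14513) to 0.346 (A_72_P656100). With array brightness as a covariate O14513 was called and the other 3 were not, with limma adjusted p from 0.0706 to 0.402.

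The other 3 CD163 probes were dim. The pair with the same sequence, A_72_P018171 and A_72_P624895, were well above background on 4 of 10 DD arrays and 8 of 11 LW arrays. Although they read the same bases, the first was called (log2 FC -0.88, limma adjusted p = 0.0307) and the second was not (-0.36, limma adjusted p = 0.498). Most of that disagreement came from 1 array, since in DD_21 the pair gave 3.80 and 7.36, while the median gap between the pair over all pigs was 0.19 and the second largest gap 1.18. Without DD_21, the log2 FC of the CD163 gene value was -0.79 (limma adjusted p = 0.0278). A_72_P170001 was well above background on 1 DD and 2 LW arrays, and its log2 FC was 0.06 (SE 0.23, limma adjusted p = 0.860).

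The scanner files give the start of 4 CD163 probes in the same transcript entry, at bases 1819, 2756, 3209 and 3336. In that order their log2 FC was 0.06, -0.36, -0.87 and -1.09, and the number of DD arrays with a signal well above background was 1, 4, 10 and 10. The twin of the probe at base 2756, A_72_P018171, has no start in the files and was as dim, but its log2 FC was -0.88, so the order depends on which probe of the pair stands for base 2756. Brightness and position moved together over these probes, so their parts in the size of the difference cannot be told apart. Averaging the dim probes with the others made the gene value the smaller estimate. With the 3 probes that were well above background on all arrays, CD163 had a log2 FC of -1.05 (limma adjusted p = 0.00294). A further 4 probes carry CD163 in their description but another gene entry, and were not counted among the members. They were dim, they did not point one way, and they are named here after their values were seen. A_72_P304849, well above background on 1 DD and 9 LW arrays, had a log2 FC of -0.79 (limma adjusted p = 0.00677), and A_72_P119126, which cleared background on none of the DD arrays and 3 LW arrays, was also called lower (limma adjusted p = 0.0283). A_72_P422674 had a log2 FC of 0.43 (limma adjusted p = 0.0511), and the probe of CD163L1 had -0.11 (limma adjusted p = 0.783).

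**Figure D2:**
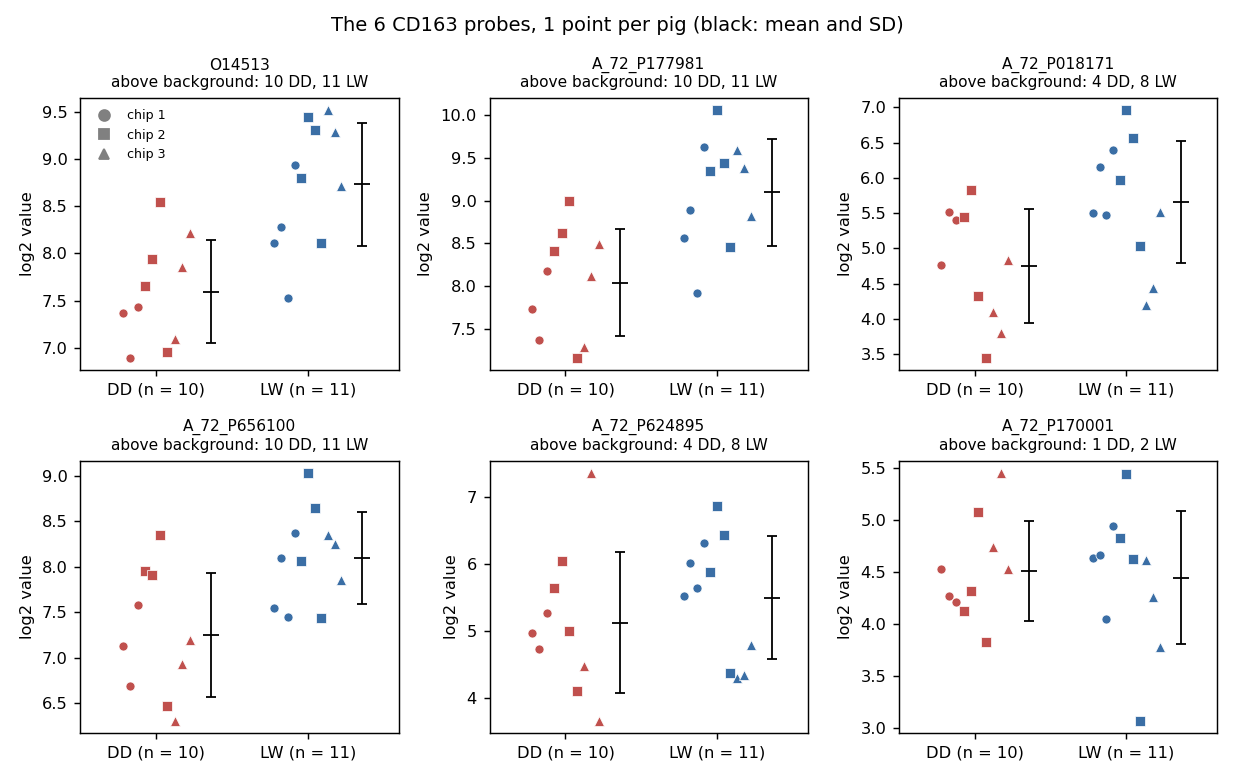
Log2 value (y axis) of each of the 6 CD163 probes in DD and LW pigs (x axis), 1 point per pig, with marker shapes for the chips, the mean ± SD in black, and above each panel the number of arrays of each breed on which the probe was well above background. O14513 and A_72_P177981 separate the breeds most, A_72_P170001 does not separate them, and A_72_P624895 has 1 DD pig, DD_21, at 7.36.

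The direction for CD163 held in every setting tried, and the call did not. On the 3 chips the DD mean lay below the LW mean by 0.75, 0.83 and 0.53 on the log2 scale, which are differences with no test. The log2 FC kept its sign in all 38 alternative settings, but lost the call in 6 of them. With chip 1 left out it was -0.75 (limma adjusted p = 0.0622), with chip 3 left out -0.84 (limma adjusted p = 0.200), and with LW_18 left out -0.72 (limma adjusted p = 0.0592). When array brightness was added as a covariate, which differed between the breeds as given above, it was -0.78 (limma adjusted p = 0.189). Over litter means it was -0.70 (exact permutation, adjusted p = 0.0853), and without DD_16 and LW_22 it was -0.60 (limma adjusted p = 0.0614).

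CSF1R, the receptor of macrophage colony-stimulating factor, lay at the edge of the threshold with higher values in DD pigs. Its log2 value was 6.20 (DD_16), 7.53 and 8.19 (DD_06) at the lowest, median and highest DD pig, against 5.77 (LW_24), 6.98 and 7.87 (LW_09) in LW pigs. Of the DD pigs, 4 lay above every LW pig, and 3 LW pigs lay below every DD pig. The log2 FC was 0.63 (SE 0.23, 95% interval 0.16 to 1.10, limma adjusted p = 0.0510), and the DD mean was higher on each chip, by 0.83, 0.38 and 0.76. The threshold was passed in 10 of 38 alternative settings, among them without DD_16, whose value was the lowest of its breed (log2 FC 0.80, limma adjusted p = 0.00826), and without LW_09 (0.73, limma adjusted p = 0.0317). It was not passed in the other 28, where the log2 FC was 0.55 without chip 3 (limma adjusted p = 0.492), 0.52 without chip 1 (limma adjusted p = 0.243), 0.60 without the chip term (limma adjusted p = 0.176) and 0.90 with array brightness as a covariate (limma adjusted p = 0.137). CSF1R was measured by the single probe O6058, well above background on all arrays, and has no second probe to compare with. The filters on dim probes and the choice of the brightest probe therefore left its values unchanged. Only the other genes in the fit differed there. With the brightest probe its unadjusted limma p was 0.0107, against 0.0108 in the main fit. Passing the threshold in those settings is thus no separate result for CSF1R. O6058 is listed under a protein entry and not a pig transcript, and its match to the pig transcript was not checked.

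SIRPA, the inhibitory receptor that binds CD47, was not called. The log2 value ran from 9.03 (DD_16) through 9.49 to 10.25 (DD_23) in DD pigs and from 8.92 (LW_15) through 9.30 to 9.67 (LW_04) in LW pigs. Of the 10 DD pigs, 9 lay above the LW median, and 4 lay above every LW pig. The log2 FC was 0.29 (SE 0.12, 95% interval 0.04 to 0.54, limma adjusted p = 0.0872).

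The 4 SIRPA probes differed among themselves. A_72_P440496 was called higher in DD pigs, with 11.16 ± 0.89 (SD, n = 10) against 10.60 ± 0.74 (SD, n = 11) and a difference of 0.55 on the log2 scale (SE 0.18, limma adjusted p = 0.0366). A_72_P688621 had a log2 FC of 0.47 (limma adjusted p = 0.0662), while A_72_P302874 and O12197 had 0.06 and 0.07. Those 4 probes carry 3 different transcript entries, and the first pair shares one. Whether the other entries stand for pig transcripts, and how their probes match the pig gene, was not checked. The call for A_72_P440496 was lost without chip 2 (log2 FC 0.40, limma adjusted p = 0.161), without chip 3 (0.37, limma adjusted p = 0.532) and with array brightness as a covariate (0.08, limma adjusted p = 0.978). The within-chip difference of the gene was 0.03, 0.29 and 0.58.

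**Figure D3:**
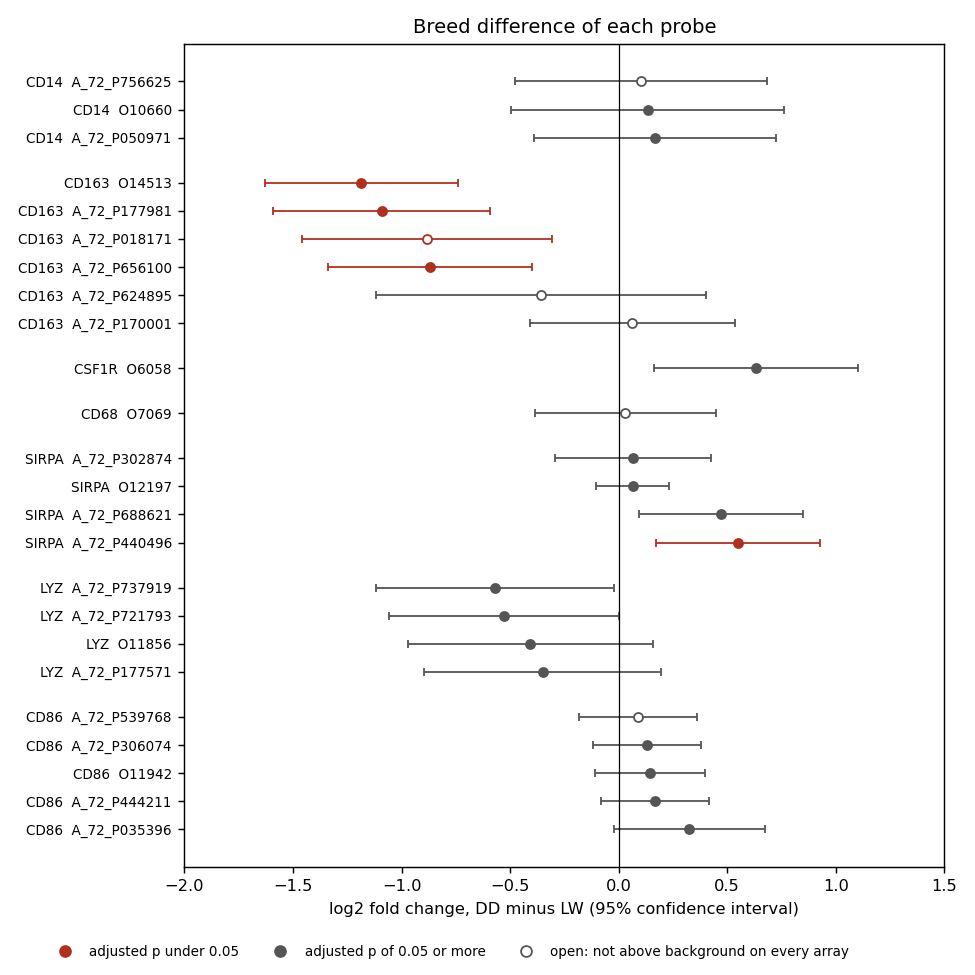
Log2 FC, DD minus LW, of each of the 24 probes (x axis) with its 95% confidence interval, grouped by gene (y axis). Red marks the 5 probes with an adjusted p under 0.05, and open symbols mark probes that were not well above background on every array. Of the red points, 4 are CD163 probes left of 0 and the other is A_72_P440496 of SIRPA, right of 0.

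CD14, the co-receptor for lipopolysaccharide, was not called, and its interval was wide. In DD pigs the log2 value ran from 7.22 (DD_16) through 9.13 to 10.40 (DD_11), and in LW pigs from 7.93 (LW_22) through 9.19 to 9.89 (LW_07). The DD range enclosed the LW range, with 2 DD pigs above and 1 DD pig below every LW pig. The log2 FC was 0.13 (SE 0.28, 95% interval -0.45 to 0.72, limma adjusted p = 0.757), and the 3 probes gave 0.10 to 0.17. The sign turned between chips, with -0.14 and -0.12 on chips 1 and 2 and 0.78 on chip 3, and without chip 3 the log2 FC was -0.23 (limma adjusted p = 0.817). Without DD_16 it was 0.38 (limma adjusted p = 0.185).

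CD68, a membrane protein of the lysosome that is abundant in macrophages, showed no direction that held. Its values were 4.97 (DD_23), 5.48 and 6.13 (DD_16) in DD pigs and 4.73 (LW_12), 5.26 and 7.13 (LW_22) in LW pigs, and the LW range enclosed the DD range. Its single probe was well above background on 7 of 10 DD arrays and all 11 LW arrays. The log2 FC was 0.03 (SE 0.20, 95% interval -0.38 to 0.44, limma adjusted p = 0.928). On chips 1, 2 and 3 the difference was 0.13, 0.71 and -0.98, where the 3 LW pigs of chip 3 held the 3 highest LW values.

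LYZ, which encodes the enzyme lysozyme, was lower in DD pigs by sign and was not called. The log2 value was 9.92 (DD_19), 10.69 and 11.88 (DD_06) in DD pigs and 9.89 (LW_24), 11.37 and 12.12 (LW_22) in LW pigs. Of the 10 DD pigs, 9 lay below the LW median, but the ranges nearly coincided. The log2 FC was -0.46 (SE 0.26, 95% interval -1.0 to 0.07, limma adjusted p = 0.197). All 4 probes pointed the same way with a log2 FC of -0.57 to -0.35, none was called, and the within-chip differences were -0.41, -0.48 and -0.51.

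CD86, the costimulatory ligand of CD28 and CTLA4, was not called. Its log2 value was 9.20 (DD_19), 9.58 and 10.19 (DD_06) in DD pigs and 8.79 (LW_24), 9.48 and 10.03 (LW_09) in LW pigs. The log2 FC was 0.17 (SE 0.12, 95% interval -0.07 to 0.41, limma adjusted p = 0.296), and the 5 probes gave 0.09 to 0.33. A pair of them, A_72_P444211 and A_72_P306074, differ by the substitution C53T, counted from 1 at the 5′ end, and their values had a median gap of 0.04 over the pigs. Chip 3 held the lowest pig of each breed.

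**Figure D4:**
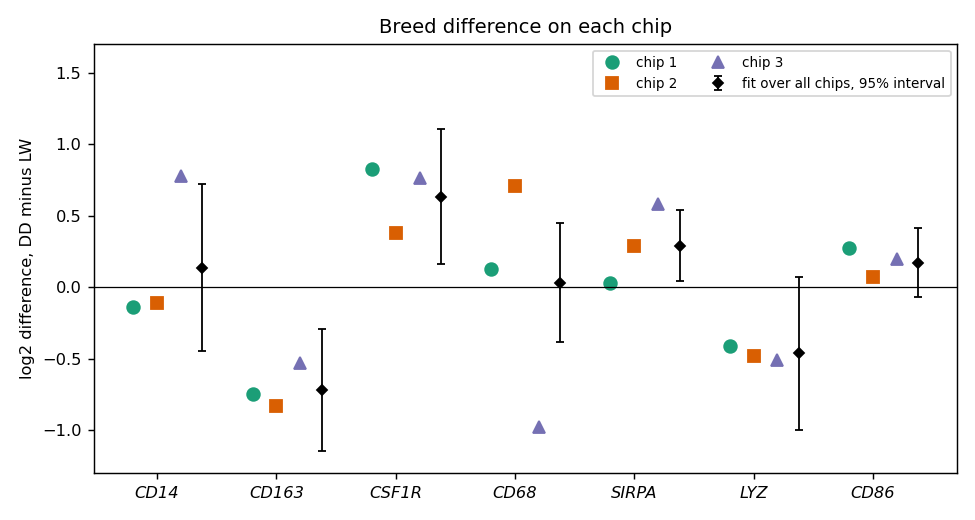
Difference of the breed means, DD minus LW, on the log2 scale (y axis) for each marker gene (x axis) on chip 1, chip 2 and chip 3, with the log2 FC of the fit over all chips and its 95% interval in black. The sign is the same on the 3 chips for 5 genes and turns for CD14 and CD68, both on chip 3.

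As a group the markers did not move in 1 direction. Of the 7, 5 had a positive and 2 a negative log2 FC, with a median of 0.13, where the median over all genes tested was -0.04. An unadjusted limma p under 0.05 was found for 3 of the 7 (CD163, CSF1R and SIRPA), and these 3 did not share a sign. Over all 34393 gene entries tested, 12588 had an unadjusted p under 0.05, so such a p was common. The mean of the 7 log2 values in a pig ran from 7.79 to 8.73 in DD pigs, with a median of 8.32, and from 7.86 to 8.61 in LW pigs, with a median of 8.39.

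Whether the markers varied together from litter to litter was examined over the 11 litter means, with the chip effect and the breed mean removed. Of the 21 pairs, 17 had a positive and 4 a negative Pearson's r. An exact permutation p under 0.05 for Pearson's r was found for 5 pairs, and none passed after adjustment over the pairs. The highest r was that of CD14 and CSF1R (Pearson's r = 0.79, exact permutation p = 0.0159, adjusted 0.143; Spearman's rho = 0.53, exact permutation p = 0.117, adjusted 0.624), and it fell to 0.38 without the 2 litters farthest from the median of CD14. CD14 and CD163 had r = 0.67 (exact permutation p = 0.0379, adjusted 0.159) and rho = 0.33 (exact permutation p = 0.357, adjusted 0.787), and r was -0.16 without 2 litters, so this relation rested on those litters. LYZ and CD86 had r = 0.69 (exact permutation p = 0.0269, adjusted 0.143) and rho = 0.57 (exact permutation p = 0.0882, adjusted 0.624), with r = 0.59 without 2 litters. CSF1R and SIRPA had r = 0.68 (exact permutation p = 0.0273, adjusted 0.143) and rho = 0.65 (exact permutation p = 0.0440, adjusted 0.624), with r = 0.41 without 2 litters. For CD163 and CSF1R, r was 0.73 (exact permutation p = 0.0270, adjusted 0.143) and rho 0.35 (exact permutation p = 0.326, adjusted 0.787), with r = 0.20 without 2 litters. Against the brightness of the array, none of the 7 markers passed after adjustment, and CD86 had the largest r (0.76, exact permutation p = 0.0188, adjusted 0.132; rho = 0.52, exact permutation p = 0.124, adjusted 0.833), which was 0.17 without 2 litters.

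Among the 9149 genes tested under a RefSeq symbol, the pattern most like that of each marker over the 21 arrays, with chip and breed removed, was as follows, given as a description. CD14 was closest to FOLR1 (r = 0.94) and TINAGL1 (r = 0.93). CD163 had no such close partner, with PDSS2 at r = 0.80 and SERINC5 at r = 0.75. CSF1R was closest to SLC7A7 and PSAP, both at r = 0.89, and SIRPA to CFP, which encodes properdin (r = 0.87), and TIE1 (r = 0.86). LYZ was closest to ISG20 (r = 0.90) and IL15 (r = 0.84), and CD86 to IFI6 (r = 0.90) and RTP4 (r = 0.86). CD68 was closest to KIRREL (r = 0.81) and LOC100511905 (r = 0.78). ISG20, IFI6 and RTP4 are interferon-induced genes, and IL15 is a cytokine of lymphocyte survival. Of these 14 genes, ISG20 (log2 FC 1.04, limma adjusted p = 0.0258) and RTP4 (1.24, limma adjusted p = 0.00216) were higher and IL15 (-0.58, limma adjusted p = 0.0358) was lower in DD pigs. The other genes were not called, and 20.9% of all gene entries tested were, so the share is near that of all genes.

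The partners of CD14 in lipopolysaccharide sensing moved in both directions. Of 15 genes tested, 2 were higher in DD pigs, 2 were lower and 11 were not called, with a median log2 FC of 0.13. Over all genes, 11.4% were higher and 9.41% lower. LY96, the subunit of the lipopolysaccharide receptor that binds the lipid, had the smallest p and was lower, at 8.32 ± 0.40 (SD, n = 10) against 9.07 ± 0.38 (SD, n = 11) in LW pigs (log2 FC -0.78, SE 0.14, limma adjusted p = 0.00125). LBP, the plasma protein that hands lipopolysaccharide to CD14, was higher (log2 FC 0.66, SE 0.16, limma adjusted p = 0.0121). The adaptor TICAM2 was higher by 0.38 (limma adjusted p = 0.0303) and the kinase IRAK2 had a log2 FC of -0.34 (limma adjusted p = 0.0286). The split of the calls depended on the setting. Without chip 3 no gene of this set was called. With array brightness as a covariate 1 was higher and none lower. Without the chip term, and over litter means, none was higher and 1 lower. With probes well above background on all arrays, 7 of 12 were higher and 2 lower.

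Around CSF1R, 3 of 8 genes tested were higher in DD pigs, where 11.4% of all genes were, none was lower, and the median log2 FC was 0.35. They were the myeloid transcription factors CEBPA (log2 FC 0.86, SE 0.23, limma adjusted p = 0.0191) and CEBPB (0.47, SE 0.12, limma adjusted p = 0.0163), and CSF2RB, the shared subunit of the receptors for interleukin-3, interleukin-5 and GM-CSF (0.63, SE 0.18, limma adjusted p = 0.0245). Of the 8, 7 had a positive sign. With array brightness as a covariate none was called and the median was 0.09, and without chip 3 none was called and the median was 0.33. The count was 1 without LW_18, without chip 2, without the chip term, without DD_16 and LW_22 and over litter means.

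In haemoglobin and heme handling, the setting of CD163, 11 genes were tested. HMOX1, which breaks heme down, was lower in DD pigs, as CD163 was (6.42 ± 0.41, SD, n = 10, against 6.96 ± 0.36, SD, n = 11, log2 FC -0.54, SE 0.16, limma adjusted p = 0.0264). TNFSF12, a cytokine that CD163 can bind, was higher (log2 FC 0.38, limma adjusted p = 0.0313). The other 9 were not called, and the median log2 FC was 0.20. Over all genes, 11.4% were higher in DD pigs and 9.41% lower. No gene of this set was called with array brightness as a covariate, without chip 2, without chip 3 or without the chip term. The same held without LW_18, without DD_16 and LW_22 and over litter means.

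Over all genes tested, 20.9% were called. In the remaining sets the share was 16.7% for the SIRPA pathway, 16.7% for costimulation, 7.14% for the lysosome and 28.6% for further monocyte genes. Of 6 genes of the SIRPA pathway, the adaptor SKAP2 was lower (log2 FC -0.57, limma adjusted p = 0.0253). Of 6 genes of costimulation, CD80, the other ligand of CD28 and CTLA4, was lower (-0.48, limma adjusted p = 0.0175). Of 14 lysosomal genes, the protease CTSD was lower (-0.38, limma adjusted p = 0.0372). The medians of these sets were 0.02, -0.08 and -0.03. Of 14 further monocyte genes, AIF1 (0.46, limma adjusted p = 0.0461) and CD36 (0.78, limma adjusted p = 0.00559) were higher in DD pigs. CST3 (-0.94, limma adjusted p = 0.0204) and the fungal receptor CLEC7A (-1.01, limma adjusted p = 0.000483) were lower. CLEC7A and CD80 were dim: the better probe of each cleared background on each of the 11 LW arrays but on 5 and 9 of the 10 DD arrays. The other 10 were not called, and the median was 0.12. Without chip 3, 1 gene of these further monocyte genes was called, and none of the sets around the 7 markers.

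Markers of other blood cells also differed. Over all genes, 11.4% were called higher in DD pigs and 9.41% lower. Among 11 genes of T cells, DD pigs had lower values of 4 (CD3D, CD3G, CD247 and CD8A, log2 FC -0.64 to -0.58), none was higher, all 11 had a negative sign, and the median was -0.50. Of 10 genes of red cell precursors, 5 were higher (among them ALAS2, CA1, EPB42 and KLF1, log2 FC 0.55 to 1.06), none was lower, and the median was 0.65. With array brightness as a covariate, no gene of either set was called, and the medians were 0.03 for red cell precursors and -0.13 for T cells. The calls for red cell precursors also fell to none without chip 2, without chip 3, without the chip term, over litter means, without DD_16 and LW_22, without DD_21 and without LW_18, with medians of 0.43 to 0.66. Under those 7 settings the calls for T cell genes numbered 0 to 3. Without the block for the sow, 1 gene of red cell precursors was called higher and 3 T cell genes lower. Of 6 platelet genes, PPBP was lower (-0.94, limma adjusted p = 0.0415). No platelet gene was called with any single chip left out, without the chip term, without the block for the sow or over litter means. None of 13 neutrophil genes, 8 B cell genes and 8 cytotoxic cell genes was called, with medians of 0.05, 0.11 and -0.31. In single pigs the mean log2 value of the T cell genes ran from 7.80 to 9.21 in DD and from 8.20 to 9.30 in LW pigs, and that of the red cell genes from 9.85 to 11.35 and from 9.63 to 11.00. Every one of these sets had genes with a probe well above background on all arrays, from 5 of 8 for B cells to 9 of 10 for red cell precursors, so markers of each of these cell types were detected in the blood RNA. The monocyte markers share their RNA with these cells, and the part of the cell makeup of the blood in the values above was not tested.

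**Figure D5:**
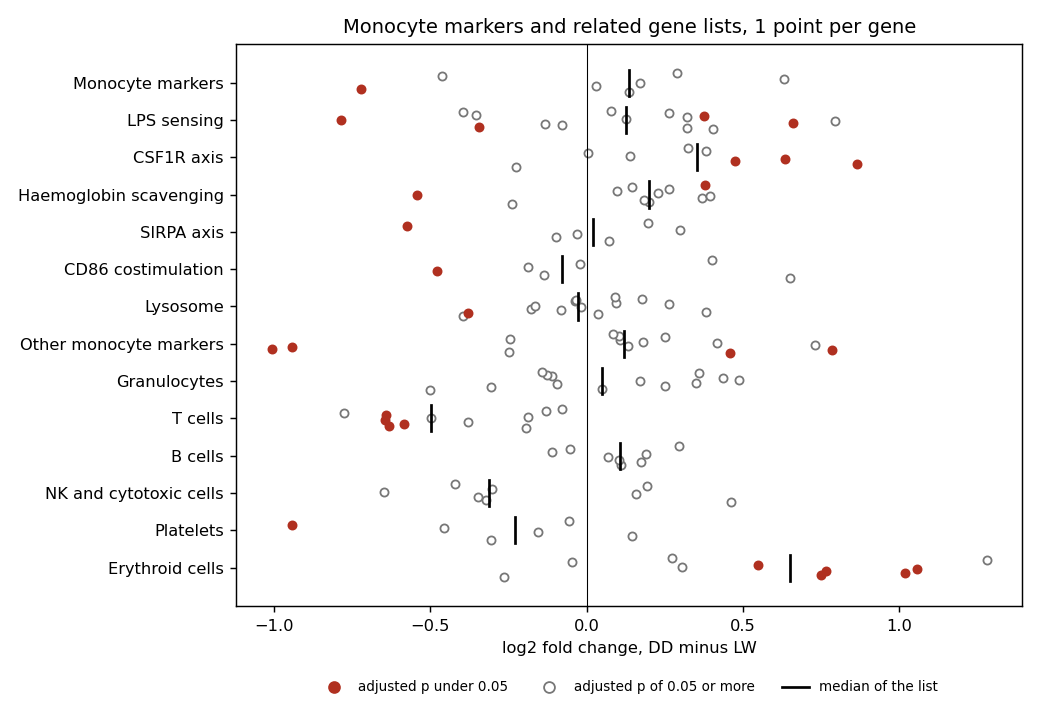
Log2 FC, DD minus LW (x axis), of the genes of each set (y axis), 1 point per gene, with red points for an adjusted p under 0.05 and a black line at the median of the set. The monocyte markers spread on both sides of 0 with a median of 0.13, the T cell genes lie left of 0 with a median of -0.50, and most genes of red cell precursors lie right of 0 with a median of 0.65.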

How the data were processed

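Total RNA of whole blood from 21 pigs was labelled with Cy3 and hybridized to a 1-colour Agilent custom pig array. The authors removed 3 arrays as outliers before deposit. The deposited scanner files hold each probe's spot and background intensity, extracted with Agilent Feature Extraction 10.7.3.1 per the submitters' processing notes and not normalized between arrays, and a flag for signal well above background. The deposited matrix holds log2 values, which the authors background corrected and quantile normalized. The log2 values and the main fit in the report are from that matrix. Recomputed from the scanner intensities, the log2 values correlated with it at r = 0.998 or more on every array. Array brightness, the counts of arrays well above background, and the alternatives on scanner intensities or processed signal came from the scanner files.

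The dimmest 25% of probes by mean, controls aside, were left out, and probes with the same gene entry in the scanner files were averaged, where 1498 probes with the uninformative entry gi were kept as single probes. Differences were fitted in limma 3.58.1 (R 4.3.3, statmod 1.5.0) on breed and chip, with the sow entered through duplicateCorrelation, and with the Benjamini-Hochberg method over all genes or probes tested. The consensus correlation within litters was -0.11. With this negative value the block made the standard errors smaller, as for CD163 (SE 0.206 with the block, 0.213 without it). The block was therefore not the more cautious choice. Without it 4894 genes were called, against 7171 with it. In a self-test on simulated data with these arrays and 34393 genes, the fit recovered 195 of 200 changed genes, with 10 false calls. Each changed gene was shifted by the same large multiple of its residual SD. The simulated noise was independent between arrays, with no effect of chip, litter or brightness. How recovery depends on the size of the difference, or on chip, litter and array brightness, was not tested. The power for the marker genes was therefore not measured. Relations used litter means with chip and breed removed and all 86400 permutations within breeds (scipy 1.17.1), two-sided. Named beside the members are the 2 closest genes of each and, of each set, the called genes, at most 4 of smallest p. The members and the gene sets were chosen with earlier results of these data known. Groups came from the breed in the labels, and pigs are separate animals but siblings share a litter.

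The alternatives were the scanner intensities with a normexp offset of 0 or 50, scaling to the 75th percentile, other filters on dim probes, the brightest probe of a gene, naming by accession, each chip or animal left out, no term for the chip, no block for the sow, litter means, a trended robust variance, and array brightness as a covariate.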

Additional observations from a re-analysis of the deposited data

Results flagged for a closer look

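One value of a marker gene lay far from the others of its breed. In the DD pigs, the CD14 value of DD_16 was 7.22, and its gap to the next lowest DD pig, over the range of the 10 DD pigs, passed Dixon's critical value of 0.466. This test was run on 7 marker genes in DD pigs only, with the critical value for a group of 10. The LW pigs were not examined with it, and chance flags about 5% of groups. DD_16 was also the lowest DD pig for CD163 (5.33), CSF1R (6.20) and SIRPA (9.03), and the highest for CD68 (6.13). Its litter mate DD_19, on another chip, had a CD14 value of 9.13. Without DD_16 the log2 FC of CD14 was 0.38 (limma adjusted p = 0.185), against 0.13 with all pigs. Without DD_16 and LW_22, the pig with the lowest CD14 value among the LW pigs, it was 0.29 (limma adjusted p = 0.334).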

How the results depend on the processing

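Replicate numbers were given to single pigs and never to a pig of each breed, so no number links a DD to an LW pig. No paired analysis was possible because the groups share no replicate number. The number of genes called between the breeds, 7171 in the report, moved by more than 1.5 times in several settings. It was 4397 with no filter on dim probes, 1866 without the chip term, 524 without chip 3, 739 with array brightness as a covariate, 2836 without DD_16 and LW_22, and 3120 over litter means with an exact permutation. With 1 pig left out it ran from 2159 (without LW_18) to 11304 (without DD_06). Scaling to the 75th percentile moved the median log2 FC of all genes from -0.04 to 0.07 and left 7101 calls. Leaving out the block for the sow gave 4894 calls. CD163 kept its direction throughout and lost the call without chip 1 (log2 FC -0.75), without chip 3 (-0.84), with array brightness (-0.78), over litter means (-0.70), without DD_16 and LW_22 (-0.60) and without LW_18 (-0.72, limma adjusted p = 0.0592). With 1 pig left out its log2 FC ran from -0.85 to -0.59, and LW_18 was the only pig whose removal ended the call. CSF1R passed the threshold from recomputed scanner intensities with an offset of 0 (log2 FC 0.66) or 50 (0.48), with probes well above background on 5 arrays of a breed (0.63) or on all arrays (0.63), with the brightest probe (0.63), with the trended robust variance (0.63), without chip 2 (0.76) and without DD_16 and LW_22 (0.84). As CSF1R has a single probe, the filters and the brightest probe changed only the other genes in the fit. With 1 pig left out it ran from 0.52 to 0.80, and SIRPA from 0.23 to 0.34, with a call without DD_06 (0.32, limma adjusted p = 0.0439). For CD14 the log2 FC turned to -0.23 without chip 3, and with 1 pig left out it ran from 0.0076 (without DD_11) to 0.38 (without DD_16). For CD68 it turned to -0.032 without chip 1 and -0.36 without chip 2, and with 1 pig left out it ran from -0.059 to 0.19. LYZ and CD86 changed neither sign nor call. Among single probes the sign turned without chip 3 for the CD14 probes A_72_P050971 (-0.18), A_72_P756625 (-0.24) and O10660 (-0.29) and the CD163 probe A_72_P170001 (-0.23), which was -0.015 with array brightness. Without chip 2 it turned for A_72_P756625 (-0.0072), A_72_P624895 (0.22), A_72_P302874 (-0.045) and O7069 of CD68 (-0.36), and without chip 1 for A_72_P539768 (-0.018) and O7069 (-0.035). The cause was not tested. The settings with all arrays well above background and without DD_16 and LW_22 were chosen after the data were seen, and the first gives no value for CD68. Fewer arrays stood behind each setting that left out a chip, and probes near background, such as 3 of the 6 of CD163, limit what their values can show.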
